A study of Mus musculus with 3 samples.

Results

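The Tcf1 peak lists of conventional CD4 T cells and regulatory T cells (Treg cells) had 1045 places at gene ends in common. They were chosen by peak position: conventional peaks on chromosomes 1 to 19 with 1 bp or more in common with a Treg peak and a midpoint within 1 kb of either end of a RefSeq gene span. They are 1045 of the 4462 conventional peaks on these chromosomes and of 4519 in all. The positions in both lists and the distance to a gene end were selected on, so neither the overlap nor the place is a finding. They are called shared gene-end peaks here.

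The study used chromatin immunoprecipitation and sequencing (ChIP-seq) with an antiserum to Tcf1 on sorted spleen CD4 T cells of mice. Both libraries used here came from wild type Foxp3-Cre-GFP mice aged 8 to 10 weeks, treated with nothing that the labels name. Conventional cells were TCRb+, CD4+, CD25- and Foxp3-Cre-GFP-, and Treg cells were TCRb+, CD4+, CD25+ and Foxp3-Cre-GFP+, where GFP reports the Foxp3-Cre allele. The conventional sample has a tissue label that reads effector, while its title and source read conventional. Each cell type had 1 library, made with 18 to 21 cycles of PCR, and the labels do not give how many animals were used. With 1 library a group no value has a replicate check, and intervals below are exact Clopper-Pearson intervals at 95% that cover counting error only. A library of Tcf1-deficient CD4 T cells (CD4-Cre+ Tcf1 fl/fl) was not analysed here, so how many of these places also give a peak without Tcf1 was not tested. Peak lists hold no expression values, so the sorted identity of the cells could not be checked against RNA of marker genes.

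Tcf1, encoded by Tcf7, is a transcription factor of the TCF/LEF family. Its HMG box binds DNA at sites built on the letters CTTTGA, most often followed by T. It can pair with beta-catenin, the effector of Wnt signalling, to raise transcription, or with TLE corepressors to lower it. In T cells it is known for its part in thymic commitment, in the naive and memory state, in follicular helper differentiation and in Treg function. Gene starts are often rich in the dinucleotide CpG and carry sites for ETS, SP/KLF, NFY and NRF1 factors, which act at promoters of many tissues.

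The promoters below lie wholly or in part under shared peaks. They are RefSeq windows of GRCm38.p6, the assembly behind mm10, from 250 bases before to 50 bases after a start, written 5′ to 3′ on the strand of the gene. Capitals mark each CTTTGA or its reverse complement TCAAAG. The first pair belongs to genes whose peaks were among the widest in both lists and covered the whole window. Creb1 (chr1:64532554-64532853, plus strand), a factor that answers cyclic AMP, and Btg1 (chr10:96616751-96617050, plus strand), a growth-restraining gene high in resting lymphocytes, have no such core in the window.
Creb1: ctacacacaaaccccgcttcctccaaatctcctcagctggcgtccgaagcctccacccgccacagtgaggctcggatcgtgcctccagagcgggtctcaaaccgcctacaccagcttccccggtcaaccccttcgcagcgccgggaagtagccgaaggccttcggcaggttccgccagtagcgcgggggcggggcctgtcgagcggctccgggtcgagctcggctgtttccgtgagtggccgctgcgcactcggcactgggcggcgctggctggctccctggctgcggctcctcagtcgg
Btg1: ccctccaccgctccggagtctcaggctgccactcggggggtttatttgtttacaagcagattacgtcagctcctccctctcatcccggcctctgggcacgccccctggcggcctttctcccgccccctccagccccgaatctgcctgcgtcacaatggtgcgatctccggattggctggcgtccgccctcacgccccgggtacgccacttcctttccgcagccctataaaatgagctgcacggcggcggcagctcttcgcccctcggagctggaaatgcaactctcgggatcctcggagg
Ctla4 (chr1:60908775-60909074, plus strand) encodes an inhibitory receptor that Treg cells use, and Bcl6 (chr16:23988803-23989102, minus strand) encodes the master regulator of follicular helper T cells. The Ctla4 window holds 1 core, next to its TATA letters, and the Bcl6 window holds none. Both windows lie under the peaks only in part. Of the 300 bases at Ctla4, 187 lay in the conventional peak and 155 in the Treg peak, and at Bcl6 253 and 200 did.
Ctla4: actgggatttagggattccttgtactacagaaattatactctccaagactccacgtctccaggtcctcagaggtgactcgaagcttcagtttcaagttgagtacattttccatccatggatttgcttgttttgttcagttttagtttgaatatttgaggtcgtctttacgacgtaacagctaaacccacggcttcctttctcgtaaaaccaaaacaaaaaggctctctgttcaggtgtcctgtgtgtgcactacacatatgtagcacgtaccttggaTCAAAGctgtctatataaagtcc
Bcl6: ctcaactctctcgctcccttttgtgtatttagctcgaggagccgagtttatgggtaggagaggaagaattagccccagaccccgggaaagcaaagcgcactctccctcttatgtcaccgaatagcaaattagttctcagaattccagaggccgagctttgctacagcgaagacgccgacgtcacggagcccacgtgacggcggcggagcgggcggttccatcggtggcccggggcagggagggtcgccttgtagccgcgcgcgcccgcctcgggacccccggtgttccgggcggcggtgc
The last 4 are the promoters of protein-coding genes with the widest pairs of peaks among those that hold the core with its flanking T and lie wholly inside both peaks. The noncoding gene 4932412D23Rik, at the wide pair over Zbtb20, also holds it and is not printed. This choice was made with their values in view. They are Grcc10 (chr6:124741020-124741319, minus strand), Elk4 (chr1:132008095-132008394, plus strand), Prr11 (chr11:87108665-87108964, minus strand) and Atxn7l2 (chr3:108210478-108210777, minus strand).
Grcc10: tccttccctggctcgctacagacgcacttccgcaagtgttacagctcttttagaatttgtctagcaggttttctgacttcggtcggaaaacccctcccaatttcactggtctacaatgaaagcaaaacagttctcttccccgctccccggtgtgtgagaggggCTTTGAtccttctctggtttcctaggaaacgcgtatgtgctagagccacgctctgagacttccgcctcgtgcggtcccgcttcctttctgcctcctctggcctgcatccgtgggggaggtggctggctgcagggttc
Elk4: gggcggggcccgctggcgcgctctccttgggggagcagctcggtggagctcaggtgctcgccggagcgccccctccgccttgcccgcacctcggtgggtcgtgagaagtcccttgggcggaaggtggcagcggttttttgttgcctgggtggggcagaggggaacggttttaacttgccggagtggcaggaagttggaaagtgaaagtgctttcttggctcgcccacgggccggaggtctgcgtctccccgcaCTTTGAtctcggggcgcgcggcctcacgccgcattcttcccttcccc
Prr11: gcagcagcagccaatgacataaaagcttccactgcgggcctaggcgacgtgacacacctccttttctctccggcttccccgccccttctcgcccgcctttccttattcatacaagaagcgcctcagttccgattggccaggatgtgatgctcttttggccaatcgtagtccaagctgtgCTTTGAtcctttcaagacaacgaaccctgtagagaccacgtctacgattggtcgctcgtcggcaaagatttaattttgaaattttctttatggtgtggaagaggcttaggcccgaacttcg
Atxn7l2: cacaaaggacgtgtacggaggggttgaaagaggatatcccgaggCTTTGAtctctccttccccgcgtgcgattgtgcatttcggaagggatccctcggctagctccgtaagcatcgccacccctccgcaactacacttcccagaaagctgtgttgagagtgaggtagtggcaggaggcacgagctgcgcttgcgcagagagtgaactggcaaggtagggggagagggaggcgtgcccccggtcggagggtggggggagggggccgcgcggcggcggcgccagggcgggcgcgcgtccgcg
Elk4 is an ETS factor of the serum response, and Atxn7l2 is a relative of a subunit of the SAGA coactivator. In Grcc10 the conventional peak was 1302 bp wide and the Treg peak 985 bp, in Elk4 1114 and 1130 bp, in Prr11 947 and 777 bp, and in Atxn7l2 769 and 707 bp.

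Of the 2428 conventional peaks at gene ends, 1045 were shared, which is 43.0% (41.1 to 45.0%). Of the 2034 conventional peaks away from gene ends, 860 were shared, or 42.3% (40.1 to 44.5%), and of all conventional peaks 42.7%. Read from the other side, 64.6% of the 1614 Treg gene-end peaks overlapped a conventional peak. The lists differ in length and their depth is unknown, so these shares are no measure of which cell type has more binding. Gene ends held 1045 of the 1905 shared peaks, or 54.9% (52.6 to 57.1%). They held 2428 of all 4462 conventional peaks, which is close to the same share.

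The pairs were close to one to one. The 1045 conventional peaks overlapped 1039 different Treg peaks. There were 8 that overlapped more than 1 Treg peak, and 6 Treg peaks were overlapped by 2 conventional ones. Midpoints of a pair were a median of 73 bp apart (quartiles 30 and 139 bp), and 651 of the pairs (62.3%) had midpoints at most 100 bp apart. The Treg midpoint also lay within 1 kb of a gene end in 1032 of them.

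A few places sat at the limits of the rule. Just inside the distance limit were Zbtb2, with its midpoint 994 bp from the end, and Tfap4, at 991 bp. Just outside were shared peaks at C430002N11Rik, 1014 bp away, and Spast, 1019 bp away. The smallest overlap that counted was 2 bp, at Morc2a, and the next 6 bp, at Nab1. Conventional peaks at Dido1 and Orai1 missed a Treg peak by 8 and 15 bp and were not counted as shared.

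Although the rule took either end of a gene, the peaks were nearly all at starts. The strand of the nearest gene was in the RefSeq promoter table for 814 of the 1045, and in 768 of these (94.3%, 92.5 to 95.8%) the nearest end was the start, with 46 at the finish. For the other 231 the start could not be told from the finish. Peaks found only in the conventional list stood the same way, with 95.2% at starts (1003 of 1054), as did Treg-only peaks with 96.2% (375 of 390). Neither comparison passed Fisher's exact test, two-sided, with adjusted p over 6 such tests of 0.47 against conventional-only and 0.41 against Treg-only peaks. A peak counted as only in 1 list where the other list had neither an overlapping peak nor a midpoint within 1000 bp. There were 1344 conventional-only and 537 Treg-only peaks at gene ends. Peaks in these tests come from 1 library of each cell type and are not replicates, so the tests compare these lists and not the cell types.

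Over the 768 starts the conventional midpoint lay a median of 10.5 bp into the gene, with quartiles of -110 and 147 bp. The Treg midpoint lay at -4.5 bp, with quartiles of -114 and 144 bp. Conventional midpoints were within 200 bp of the start in 518 of them (67.4%), on the upstream side in 47.9% and inside the gene in 51.7%. The conventional peak covered the first base of the gene in 586 (76.3%), the Treg peak in 547 (71.2%) and both in 499 (65.0%, 61.5 to 68.3%). Conventional-only peaks were centred a little further in, at a median of 35 bp, with 57.5% inside the gene. That shift is small beside the width of the peaks and was not tested.

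**Figure D1:**
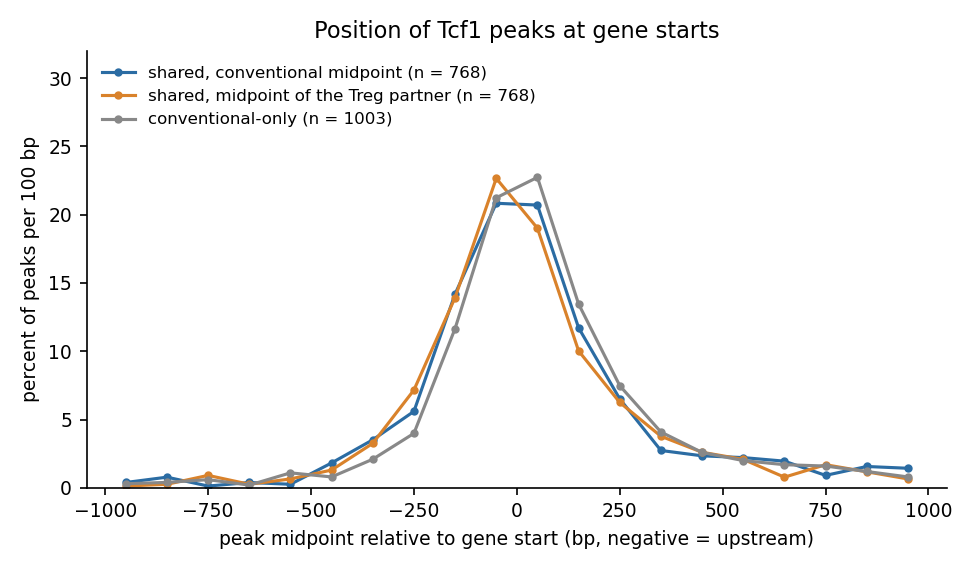
Position of peak midpoints relative to the gene start, in bp with negative values upstream, as the percent of peaks in each 100 bp. Blue is the conventional midpoint of the 768 shared peaks at starts, orange the midpoint of their Treg partners (11 of which lie over 1 kb away and are not drawn) and grey the 1003 conventional-only peaks, and all 3 curves peak within 100 bp of the start.

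Ends of at least 2 genes lay within 1 kb of the midpoint in 359 of the 1045 (34.4%). Opposed starts, that is 2 genes on opposite strands that both begin there, were found at 217 (20.8%, 18.3 to 23.4%). Of these pairs 120 joined 2 protein-coding genes, 95 a protein-coding gene and a long noncoding RNA, and 2 a pair of long noncoding RNAs. In 138 the genes ran away from each other without overlapping. The paired starts were a median of 153 bp apart, with quartiles of 66 and 354 bp. Ndufb5, a subunit of respiratory complex I, and Mrpl47, a protein of the mitochondrial ribosome, shared 1 such place, with a conventional peak of 649 bp and a Treg peak of 578 bp. Cbx3, a heterochromatin protein, and Hnrnpa2b1, a splicing regulator, shared another, of 1947 and 793 bp. At the start of Tgfb1, the cytokine that Treg cells make and need, an end of B9d2 also lay within 1 kb of the midpoint. The peaks there were 474 and 461 bp wide, and the place is not given here as a pair of opposed starts.

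Opposed starts made up 19.6% of conventional-only peaks (263 of 1344) and 15.5% of Treg-only peaks (83 of 537). The difference from Treg-only peaks, 5.31 percentage points, had p = 0.012 by Fisher's exact test, two-sided, and an adjusted p of 0.073, so it did not pass. Over the alternatives it ran from 2.65 points with ends of protein-coding genes alone (Fisher's exact test, adjusted p = 0.97) to 6.0 points with gene ends within 2 kb (Fisher's exact test, adjusted p = 0.014), and it passed in the latter alone. The difference from conventional-only peaks was 1.20 points with an adjusted p of 0.47. The nearest gene was protein-coding in 854 of the shared peaks (81.7%), in 83.0% of conventional-only and in 78.4% of Treg-only peaks, and neither difference passed, with adjusted p of 0.47 and 0.37.

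Width is the one value that the lists give for each peak. Shared gene-end peaks had a median of 508 bp in the conventional list (quartiles 390 and 661 bp, range 279 to 5787 bp) and of 427 bp in the Treg list (330 and 561 bp, range 240 to 5802 bp). Conventional-only peaks at gene ends had a median of 400 bp and Treg-only ones of 328 bp, and shared peaks away from gene ends had 488 bp. A wider peak has more room to overlap another, so the rule bears on these widths and they were not tested. The conventional peak was the wider of the pair in 711 (68.0%) and the Treg peak in 331 (31.7%). The narrowest peak of each list also differs, at 279 and 240 bp, so wider in one list cannot be told apart from how that list was called. Log2 widths of the pair had a Pearson r of 0.40 and a Spearman rho of 0.35 over the 1045 pairs, which share their libraries and places, as a description across peaks.

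**Figure D2:**
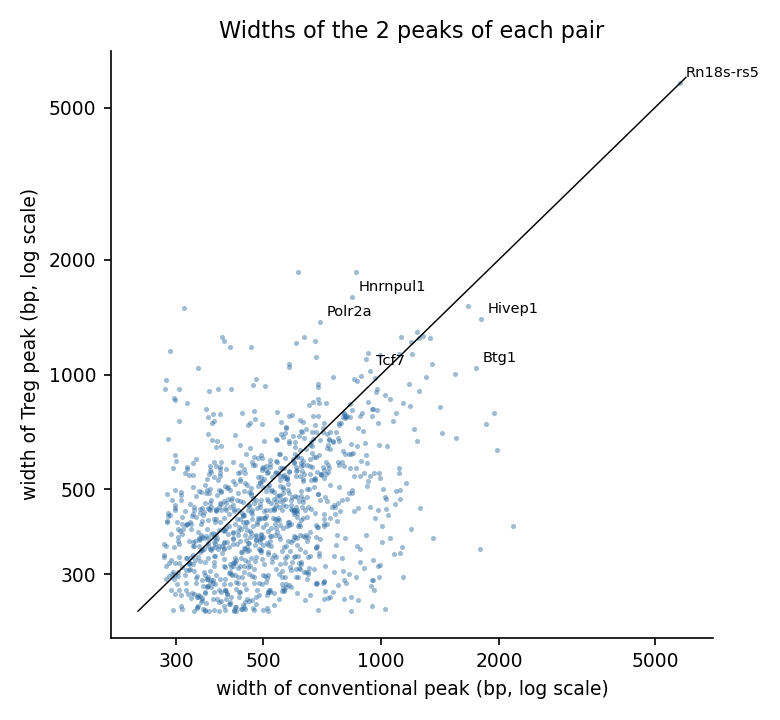
Width of the conventional peak (x axis) against width of the Treg peak (y axis) in bp on log scales, 1 point for each of the 1045 shared gene-end peaks, with the line of equal width. More points lie below the line (711) than above it (331), and Rn18s-rs5 stands alone at 5787 and 5802 bp.

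The widest pair by far lay at Rn18s-rs5 on chromosome 17, a pseudogene of 18S ribosomal RNA. Ribosomal RNA genes exist in many near-identical copies, so where reads of this place came from is uncertain. Next by the sum of width ranks came the long noncoding RNA Gm32700, with 1666 and 1509 bp, and Hivep1, a zinc finger gene, with 1799 and 1397 bp. Then followed the start shared by Gm36584 and Mex3b, Creb1, Btg1, Cox20, Hnrnpa3, Zbtb20, the start shared by Gm42085 and Cltc, Sypl, and Sp4. Creb1 had peaks of 1281 and 1261 bp, and Hnrnpa3, an RNA-binding protein of the spliceosome, of 1250 and 1249 bp, so both were about equally wide in the 2 cell types. Btg1 was wider in the conventional list, with 1751 against 1041 bp. In the other direction Polr2a, the large subunit of RNA polymerase II, had 699 against 1373 bp, and Hnrnpul1 845 against 1596 bp.

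Some genes had peaks at both ends. Junb, an AP-1 factor induced on activation, had 3 shared peaks in the conventional list, of 722 and 320 bp near its start and 855 bp near its finish. The pair near its start overlapped a single Treg peak of 844 bp. Both ends were also taken at Bmp2k and D16Ertd472e. The snRNA gene Gm22614 had a peak on either side in the conventional list, of 494 and 299 bp, which overlapped a single Treg peak of 616 bp that covered the whole gene. Other conventional peaks inside the gene span were found for 100 of the 1091 protein-coding genes with a shared gene-end peak (9.17%), beside 8.76% of all protein-coding genes. Itpkb and Bach2 had 5 such peaks each and Ankrd11 had 4.

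Of 20661 protein-coding genes on chromosomes 1 to 19, 1091 had a shared gene-end peak, which is 5.28%. A conventional gene-end peak of any kind was found at 12.2% and a Treg one at 7.92%. Of the genes with a conventional gene-end peak 43.2% had a shared one. The share of protein-coding genes with a shared gene-end peak ran from 3.25% on chromosome 2 to 7.95% on chromosome 12. Counts by gene list below are read against 5.28%. They are descriptions with no test.

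The gene that encodes Tcf1 was itself among them. At Tcf7 (chr11:52246527-52283383, minus strand) the conventional peak spanned chr11:52282867-52283803 and was 937 bp wide. The Treg peak spanned chr11:52282652-52283672 and was 1021 bp wide. Their midpoints lay 48 and 221 bp inside the gene. Of 32 genes in the list of the TCF/LEF family and Wnt pathway, 7 (21.9%) had a shared gene-end peak. Ctnnb1, which encodes beta-catenin, had peaks of 681 and 376 bp over its start. Gsk3b and Csnk1a1 encode kinases that mark beta-catenin for destruction, Lrp6 a Wnt receptor and Znrf3 a ligase that removes Wnt receptors, and all 4 had one. Sp5, a transcription factor that is a common Wnt target, had peaks of 454 and 344 bp. At Lef1, the closest relative of Tcf7, the conventional list had a gene-end peak with no overlapping Treg peak, and at Axin2, a Wnt target, neither list had a gene-end peak.

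Genes of the T cell receptor and its signalling had 7 of 35 (20%). Among them were Cd3e and Cd3d, chains of the receptor complex, the kinase Zap70, the signalling proteins Malt1 and Sh2d2a, and Cd5, which restrains the receptor. The Zap70 peaks were 739 and 569 bp wide and both lay over its start, and those of Cd5 were 422 and 439 bp. At Cd3d the peak lay at the finish, 982 and 748 bp wide. Of 25 genes of the naive and memory state, 5 (20%) had one, namely Ccr7, the receptor that brings T cells into lymph nodes, Klf2, which keeps them circulating, Bach2, Satb1 and Tcf7. The Ccr7 peaks were 624 and 496 bp wide with midpoints 8 bp apart. Il7r, the receptor for interleukin 7, had no gene-end peak in either list.

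Of 28 regulators and cytokines of helper cells, 4 (14.3%) had a shared gene-end peak, Bcl6, Stat3, Runx3 and Maf, each a transcription factor. The peaks at Bcl6 were 488 and 418 bp wide and centred 18 bp apart, 55 and 73 bp inside the gene. Of 25 Treg signature genes 3 (12%) had one. They were Ctla4, with 350 and 414 bp, Tigit, another inhibitory receptor, with 369 and 469 bp, and Tgfb1. The Treg peak was the wider at Ctla4 and Tigit but not at Tgfb1. Ikzf4 had no gene-end peak in either list. With 3 and 4 genes these lists cannot be told from the background, as the interval for the Treg signature runs from 2.55 to 31.2%.

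**Figure D3:**
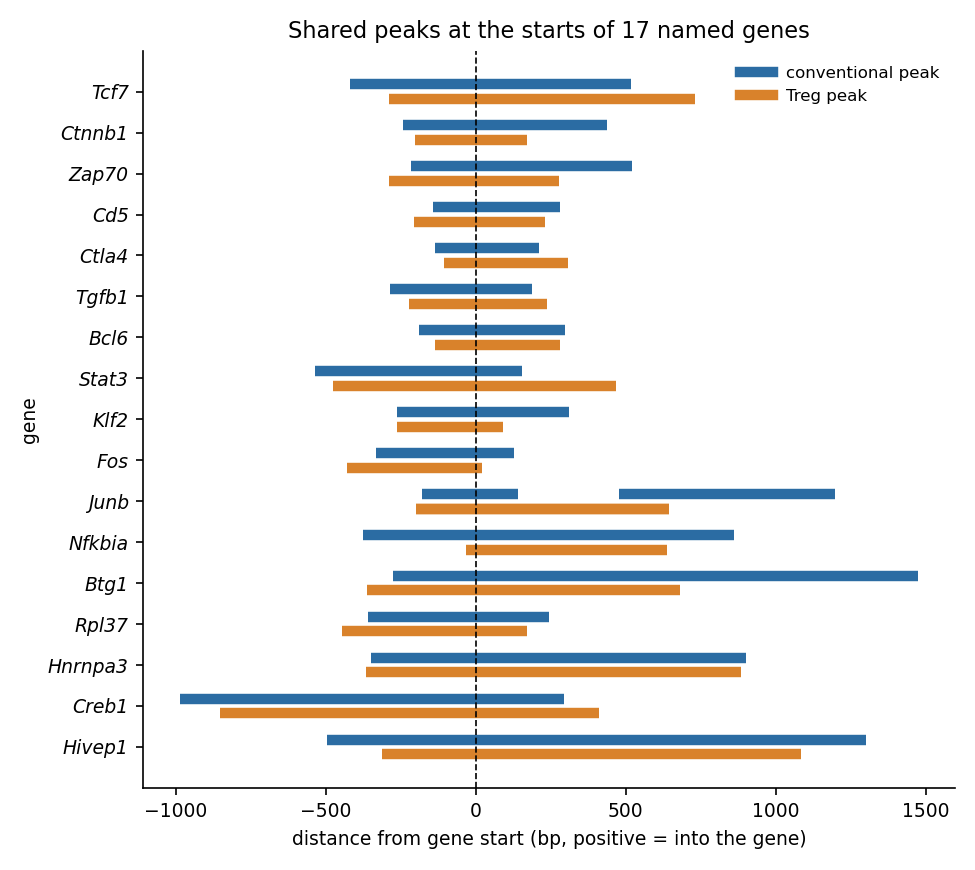
Extent of the conventional peak (blue) and Treg peak (orange) at the starts of 17 named genes, in bp from the gene start with positive values into the gene. The dashed line is the start, and at Tcf7, Ctla4, Bcl6, Creb1 and Hivep1 both peaks cover it.

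Early genes and transcription factors of activation had the highest share among the lists, 10 of 35 (28.6%, 14.6 to 46.3%). The list was also high in conventional gene-end peaks of any kind, at 18 of the 35 beside 12.2% of all protein-coding genes. Of these 18 genes 10 had a shared one, beside 43.2% of all genes with a conventional gene-end peak. The 10 included Fos, Jun and Junb, which make up AP-1, Nfkbia and Tnfaip3, which dampen NF-kB, and Relb, one of its subunits. Dusp1, a phosphatase of MAP kinases, was another, as were Zfp36l1 and Zfp36l2, which speed the decay of mRNA, and Btg1. Their peaks were wide, with medians of 844.5 bp in the conventional and 684 bp in the Treg list, beside 508 and 427 bp over all shared gene-end peaks. Nfkbia had 1237 and 669 bp, Zfp36l1 1054 and 862 bp. Fos had 461 and 453 bp, centred 104 and 204 bp before its start. Nr4a1, an early gene that reports receptor signalling, had a conventional gene-end peak only.

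Genes that most cells use were among them too. The comparison list of housekeeping genes had 5 of 20 (25%, 8.66 to 49.1%), among them Ppia, Tbp, Ubb and Polr2a, with none at Actb or Ywhaz. Chromatin regulators had 24 of 100 (24.0%), among them the SWI/SNF subunits Arid1a, Arid1b, Arid2, Smarca4 and Smarcd1. The histone methyltransferases Kmt2a and Ezh2 were there too, as were the deacetylases Hdac2 and Hdac10. Cytosolic ribosomal proteins had 18 of 77 (23.4%), chaperones 19 of 84 (22.6%), translation factors 11 of 68 (16.2%) and splicing and RNA-binding genes 19 of 137 (13.9%). These lists were also high in conventional gene-end peaks of any kind. Such peaks were at 9 of the 20 housekeeping genes, 38 chromatin regulators, 34 ribosomal proteins, 37 chaperones, 22 translation factors and 48 splicing genes. Peaks of the ribosomal protein genes were narrow, with medians of 440 and 331 bp, while those of splicing genes had 616 and 528 bp. Mitochondrial ribosomal proteins had 8 of 75 (10.7%), cell cycle genes 3 of 32 (9.38%) and the proteasome 4 of 47 (8.51%). Histones had 6 of 75 (8.00%), with the 6 genes at only 3 peaks. Zfp zinc finger genes had 25 of 360 (6.94%) and the respiratory chain 6 of 93 (6.45%). In these last lists the interval reached down to the 5.28% of all protein-coding genes.

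Markers of other cells had counts that, in lists this small, cannot be told from the 5.28% of all protein-coding genes. None of 16 CD8 and cytotoxic T cell genes, 18 myeloid genes, 16 liver genes or 16 neuron genes had a shared gene-end peak. Of 16 B cell genes, 1 did (6.25%). That gene was Pou2af1, a coactivator of octamer-binding factors, with peaks of 521 and 443 bp. The CD8 list had conventional gene-end peaks at 2 genes and the myeloid, liver and neuron lists at none. With so few genes an absence still allows a share of up to 20.6% in a list of 16.

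**Figure D4:**
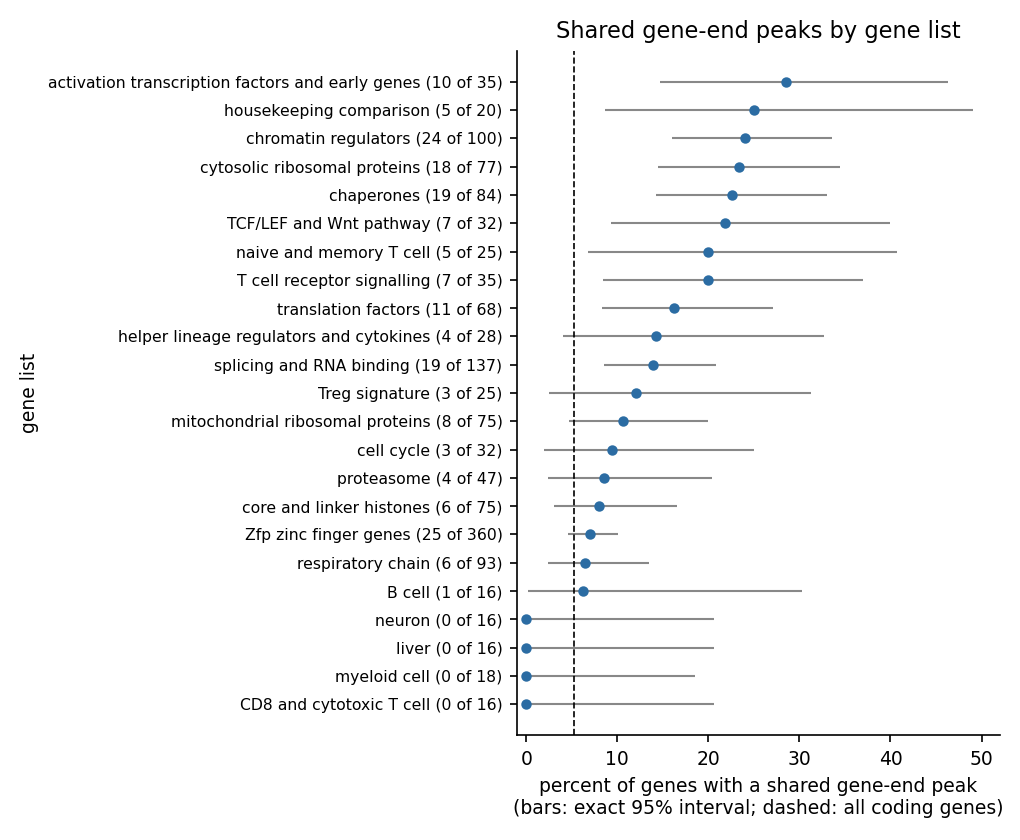
Percent of the genes in each of 23 lists that had a shared gene-end peak, with exact 95% intervals for counting error and the counts beside each name. The dashed line is the 5.28% of all protein-coding genes, and the activation list is highest at 28.6% with the housekeeping list next at 25%.

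Small RNA genes were part of the set as well. Of 391 tRNA genes on these chromosomes 25 (6.39%) had a shared gene-end peak, at 15 peaks, since tRNA genes often lie in clusters. Rmrp and Rpph1, the RNAs of RNase MRP and RNase P, each had one, of 299 and 499 bp and of 320 and 407 bp. Both RNAs are made by RNA polymerase III. Long noncoding RNAs had 233 of 12408 (1.88%), snRNAs 12 of 931 (1.29%) and annotated pseudogenes 16 of 8884 (0.18%).

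Of 1136 microRNA genes 17 (1.5%) had a shared gene-end peak, at 15 peaks. Mir132 and Mir212 lie side by side at 1 shared peak on chromosome 11. It was 565 bp wide in the conventional list and 273 bp in the Treg list, where it is too narrow to cover both genes. Mir132 and Mir212 are known to be made from 1 transcript. They are printed because their 3p arms share a seed, bases 2 to 8, here in capitals, so they can recognise the same sites. Mir150 lay beside peaks of 373 and 284 bp, and its 3p arm is the only one printed. The mature sequences are those of RefSeq for GRCm38.p6, at chr11:75173723-75173744, chr11:75173443-75173464 and chr7:45121798-45121819, all on the plus strand.
miR-132-3p: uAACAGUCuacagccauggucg
miR-212-3p: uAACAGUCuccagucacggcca
miR-150-3p: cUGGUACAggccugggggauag
A peak beside a microRNA gene says nothing of its level, and no RNA was measured.

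The letters under the peaks were read from RefSeq promoter windows, since no genome sequence was used. A window was counted where a peak covered any of it, and 727 of the 1045 shared peaks had at least 1, for 1027 windows of 903 genes. The other 318 had none. Windows under shared peaks were rich in G and C, with a median of 64%, beside 63.3% under conventional-only peaks, 64.7% under Treg-only peaks and 53% over all 31396 windows. The CpG ratio, observed over expected, had medians of 0.871, 0.868, 0.865 and 0.389. By these measures the 3 classes of gene-end peaks were alike, and no test was made.

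The share of windows with the Tcf1 letters was not alike. CTTTGAT, searched on both strands, was in 76 of the 1027 windows under shared peaks, or 7.40% (5.87 to 9.18%). It was in 25 of 1234 windows under conventional-only peaks (2.03%, 1.32 to 2.98%) and in 14 of 436 under Treg-only peaks (3.21%, 1.77 to 5.33%). Over all windows the share was 3.76% (3.55 to 3.98%), and over the 28377 windows with no peak 3.71%. Pooled over base composition, shared peaks thus had a share above that of all promoters, and conventional-only peaks one below it, with intervals that did not overlap. Within ranges of G and C content, given below, the lower share of conventional-only peaks was not seen. No test was made of these differences. A match is a run of letters and not a site shown to be bound.

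The gap to conventional-only peaks was there under 3 other ways of counting. With 1 window a gene the shares were 7.31% for shared, 1.86% for conventional-only and 3.04% for Treg-only peaks. By peak they were 8.25% (60 of 727), 2.16% (20 of 926) and 3.32% (11 of 331). In windows wholly inside the peak they were 9.02% (44 of 488), 1.59% (6 of 378) and 3.70% (2 of 54). The last has an interval of 0.452 to 12.7%, which holds the share of shared peaks, so the gap to Treg-only peaks is not shown in that count. Shared peaks are wider than the others, and those with a match had median widths of 538 and 461 bp against 516 and 428 bp without.

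Base composition changes how often such letters occur, so windows were also split into 3 ranges of G and C content with about equal numbers of all promoters. In the middle range 38 of 237 windows under shared peaks held CTTTGAT (16.0%, 11.6 to 21.3%), beside 3.58% under conventional-only peaks and 3.99% of all windows. In the highest range the shares were 4.47%, 1.24% and 1.42%. In the lowest, with 30 windows under shared peaks, they were 13.3% (3.76 to 30.7%), 7.32% and 5.93%, with intervals that overlapped. In each range the interval of conventional-only peaks held the share of all windows. It was 1.80 to 6.32% in the middle range, 0.621 to 2.21% in the highest and 1.54 to 19.9% in the lowest. The shorter core CTTTGA, which CTTTGAT contains, was in 18.0% of windows under shared peaks (15.7 to 20.5%), 11.0% under conventional-only and 12.2% under Treg-only peaks. Of all windows 15.9% held it (15.5 to 16.3%), an interval that overlapped that of shared peaks. By range, shared, conventional-only and all windows had 31.6%, 21.8% and 17.8% in the middle and 13.3%, 6.66% and 7.13% in the highest. In the lowest they had 30%, 24.4% and 22.9%.

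For the other 10 motifs shared and conventional-only peaks are given in that order. ETS letters, CCGGAAG, were in 25.5% and 26.3% of windows, beside 9.0% of all. SP/KLF letters, GGGCGG, were in 72.6% and 72.7%, beside 36.0%. NRF1 letters, GCGCA and GCGC with any base between them, were in 14.3% and 13.5%, beside 4.68%. CRE letters, TGACGTCA, were in 4.48% and 4.78%, beside 1.83%, and the E-box CACGTG in 11.1% and 13.9%, beside 7.14%. YY1 letters, AAGATGGCG, were in 3.70% and 5.43%, beside 1.39%. Below the share of all windows were RUNX letters, TGTGGT, in 10.7% and 11.7% beside 16.7%, AP-1 letters, TGANTCA, in 3.8% and 4.13% beside 7.84%, and the TATA letters TATAAA in 5.55% and 5.27% beside 13.6%. NFY letters, CCAAT, were in 36.9% and 38.8%, beside 37.3%. For each of these 10 the intervals of shared and conventional-only peaks overlapped. Treg-only peaks had 21.6% for ETS, 79.1% for SP/KLF and 2.98% for TATA letters. The shares beside all windows move with base composition. In the range richest in G and C, which held 760 of the 1027 windows, SP/KLF letters were in 82.9% under shared peaks and 77.7% of all, CRE letters in 4.08% (2.79 to 5.74%) and 3.20%, and ETS letters in 26.7% and 16.4%.

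**Figure D5:**
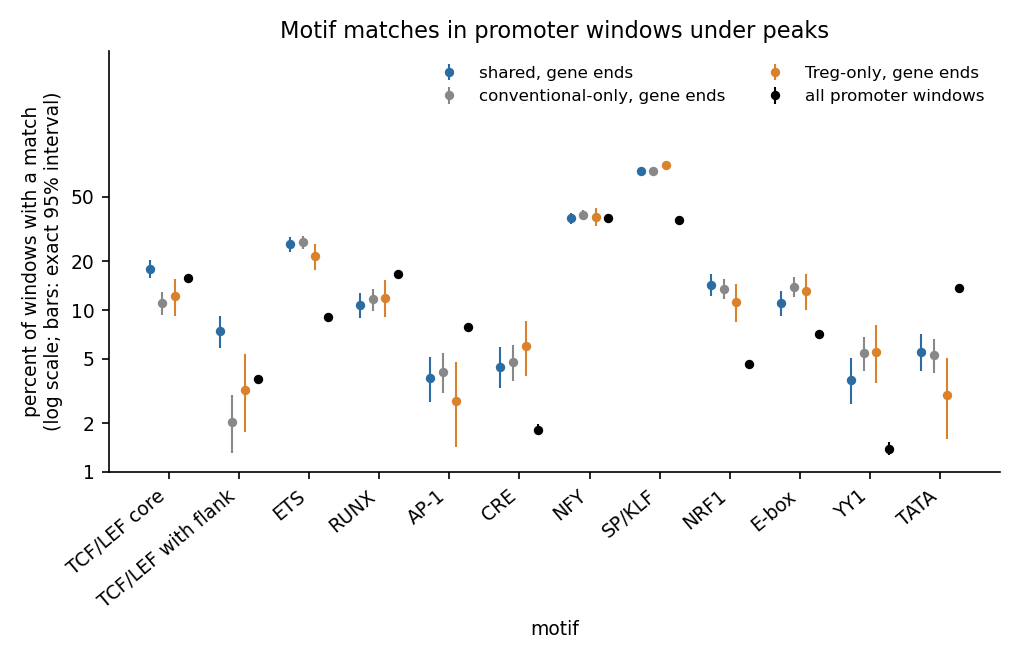
Percent of 300-bp promoter windows that hold each of 12 motifs on either strand, on a log scale, with exact 95% intervals for counting error. Blue is shared, grey conventional-only and orange Treg-only peaks at gene ends, black all promoter windows, and the TCF/LEF letters with the flanking base stand at 7.40% for shared against 2.03% for conventional-only peaks.

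Windows of different transcripts and genes overlap. With each match counted once and credited to 1 gene, there were 63 matches at 60 shared peaks and 60 genes. Counted by gene, with 1 window each, 66 of 903 genes had a match. Of the 63 matches, 59 lay inside the conventional peak, 55 inside the Treg peak and 54 inside both. With 1 window a gene, the 69 matches were a median of 62.5 bp from the conventional midpoint (quartiles 31.5 and 124.5 bp). ETS matches were at 102.5 bp, SP/KLF matches at 132 bp and RUNX matches at 142 bp in the shared peaks. The CTTTGAT matches lay at a median of 39.5 bp in conventional-only peaks (22 matches) and of 87 bp in Treg-only peaks (12 matches, beside 72.5 bp for ETS). No test was made, and the distances are limited by where windows lie.

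Among listed genes the match was in the windows of Ctla4, Cdk4, Sp5, Snrpa, Hspb6, Zfp143, Zfp622, Zfp719 and Zfp827. In the Ctla4 promoter printed above it runs on the other strand, from the base 26 after the start, and it lay inside both peaks. Cdk4, the kinase of the first growth phase of the cycle, had it 52 bases before its start, inside peaks of 367 and 561 bp. At Sp5 and Zfp719 the match lay outside both peaks, and at Snrpa inside the conventional peak alone. None of the 10 activation genes, of the ribosomal protein genes or of the T cell receptor genes had it in a window under a shared peak. Of all genes with such a window 7.31% had it (66 of 903), so its absence does not set these small lists apart. In that order 2, 4 and 3 of their genes were not in the promoter table and had no window to search.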

How the data were processed

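The deposited peak lists hold chromosome, start and end, so their only other measure is base positions, and the authors give no score, height or count with them. Depth is therefore unknown. Per the submitters' processing notes the tools were FastQC, Bowtie2 (2.3.4.1) and MACS2 (2.1.1), with mm10 as the build and no role stated. The filter, control and pooling behind the lists were not given in the sources used here. If calling depended on depth, the number and width of peaks would too.

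Starts were made 1-based. Genes, 47038 on chromosomes 1 to 19, came from RefSeq for GRCm38.p6, and strand came from its promoter table, which covers 79.6% of protein-coding genes and 74.9% of long noncoding RNAs. Overlaps, exact intervals and two-sided Fisher's exact tests with Benjamini-Hochberg adjustment over 6 tests at 0.05 used scipy 1.17.1 and pandas 2.3.3 in Python 3.11.15 with numpy 2.4.6, and matplotlib 3.10.9 drew the plots. On simulated data, 404 of 404 planted shared peaks and 203 of 203 planted motif windows were found. Of 400 null Fisher's exact tests on random counts, 3.5% had p under 0.05. The planted peaks lay at genes of known strand far from other gene ends. Calls of opposed starts, and genes without a strand, were therefore not checked in this way.

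The members and the 23 gene lists were chosen with earlier results of these data known. Named genes were 16 fixed genes, the 12 widest pairs by the sum of width ranks, up to 3 widest per list, the places nearest the limits and up to 4 genes with several peaks; others belong to a count or illustrate a list, and were chosen after their values were seen. Some genes named by this rule are not reported here. Alternatives changed the overlap, the end distance, the gene kinds, the width and the list used. Replicates, and so a replicate test, were not to be had with 1 library a group.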

Additional observations from a re-analysis of the deposited data

Results flagged for a closer look

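Chromosomes X and Y lay outside the rule. On chromosome X, 11 conventional peaks within 1 kb of a gene end overlapped a Treg peak, of 26 conventional gene-end peaks there. They were taken up here because they lie in data that no comparison above used. On the chromosomes used above, 1045 of 2428 conventional gene-end peaks were shared (43.0%). The 11 of 26 on chromosome X were close to that share, and no test was made. The library of Tcf1-deficient cells was not analysed, so these peaks were not set against it. Genes at these ends included Ddx3x, an RNA helicase, Kdm5c, a histone demethylase, Rbm10, a splicing regulator, and Sat1, an enzyme of polyamine breakdown. On chromosome Y there were 2 such peaks.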

How the results depend on the processing

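With only the wider peaks of each list kept (those above its median width), with pairs found anew, there were 505 shared gene-end peaks at 532 protein-coding genes, and 39.5% of conventional gene-end peaks were shared. There the difference in opposed starts against conventional-only peaks was -2.14 points (adjusted p = 0.62) and that in protein-coding genes against Treg-only peaks -0.541 points (adjusted p = 0.87), both turned in sign and neither past Fisher's exact test. With ends of protein-coding genes alone the difference in opposed starts was -0.0251 points (Fisher's exact test, adjusted p = 1). Counting pairs by midpoints within 200 bp gave a share of 37.0%, and counting from the Treg list 64.6%. Only ends within 2 kb brought a test past its threshold, for opposed starts against Treg-only peaks at 6.0 points (Fisher's exact test, adjusted p = 0.014). The share of windows with CTTTGAT ran from 6.65 to 9.02% over the alternatives, of which 1 window a gene was chosen after seeing the data. It was not recomputed for other end distances. Of values for single lists and motifs, 17 of 227 left the main count by over 1.5 times or, for motifs, left its interval. With the wider peaks alone, genes with a shared gene-end peak fell from 18 to 5 for cytosolic ribosomal proteins, 24 to 10 for chromatin regulators, 19 to 9 for chaperones, 25 to 14 for Zfp genes, 11 to 6 for translation factors (7 with midpoints within 200 bp) and 8 to 5 for mitochondrial ribosomal proteins. In the same setting they fell from 7 to 3 for the T cell receptor list and 7 to 4 for the Wnt list, 5 to 3 for the naive and memory list, 4 to 2 for the proteasome, and 3 to 1 for both the Treg signature and the cell cycle. With ends within 2 kb the T cell receptor list had 11, the naive and memory list 8 and the myeloid list 1. SP/KLF letters were in 76.8% of windows wholly inside the peak. Smaller shifts were common, such as 24 to 16 for chromatin regulators with midpoints within 200 bp and 7 to 13 for activation genes over all alternatives. The causes were not tested. The share of protein-coding genes was not run where only their ends counted. No paired analysis was possible because each cell type has 1 library. Depth is unknown, so a peak missing from a list may be binding below its threshold.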
